A study of Mus musculus with 2 samples.

Results

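FoxO-linked quiescence genes are 10 genes whose products hold lymphocytes in a resting state: Foxo1, Sesn1, Sesn3, Tsc22d3, Ddit4, Txnip, Btg1, Btg2, Tob1 and Pik3ip1. They were taken by their symbols, and each was found once among the 31053 genes of the deposited tables. The genes were chosen by measured values, namely their levels in resting and in cycling B and T cells and the ratio of these levels between the libraries, so these values are given below as a description and without a test. The cells came from the mediastinal lymph nodes (MedLNs), which drain the lung, of wild-type C57/B6J mice aged 5 to 13 weeks. All mice had ovalbumin-induced asthma: 50 µg ovalbumin with alum into the peritoneum on days 0 and 7, ovalbumin into the nose from day 14 to day 16, and tissue collection on day 17. The library without butyrate (OVA) and the library with butyrate (C4) each held the pooled cells of 4 mice. There was 1 library per condition, so butyrate and any other difference between the pools cannot be told apart, and no p-value is given. The labels do not give the route or the dose of butyrate for these mice.

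In a resting lymphocyte the transcription factor FoxO1 stays in the nucleus and keeps genes of homing, survival and low growth switched on. When a B or T cell meets its antigen, PI3K and Akt become active, Akt phosphorylates FoxO1, and the factor leaves the nucleus. The genes described here act around this switch: Pik3ip1 restrains PI3K, the sestrins Sesn1 and Sesn3 and the stress protein Ddit4 (REDD1) restrain the growth kinase complex mTORC1, Txnip limits glucose uptake and binds thioredoxin, Tsc22d3 (GILZ) is a target of glucocorticoids and of FoxO factors, and Btg1, Btg2 and Tob1 recruit the CCR4-NOT complex, which shortens the tails of messenger RNAs.

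Promoters are shown because most of these genes were lower together in cycling cells. The windows run from 250 bases before to 50 after the RefSeq transcript start (build GRCm38.p6), and 13 windows were found for the 10 genes. The core FoxO motif was searched as GTAAACA and its reverse complement TGTTTAC. It stood in 3 of the 13 windows, from 3 of the 10 genes, and in 1199 of all 32851 mouse windows (3.65%). The genes were named as FoxO-linked, so nothing is read from this count. In capitals is the FoxO motif for Btg1 (chr10:96616751-96617050, plus strand, motif starting 204 bases before the start), Txnip (chr3:96557707-96558006, plus strand, 121 bases before) and Sesn1 (chr10:41810324-41810623, plus strand, 22 bases after, one of the windows of this gene), and the cAMP response element TGACGTCA for Btg2 (chr1:134079106-134079405, minus strand, 166 bases before the start), which stood in 1.79% of all windows.
Btg1: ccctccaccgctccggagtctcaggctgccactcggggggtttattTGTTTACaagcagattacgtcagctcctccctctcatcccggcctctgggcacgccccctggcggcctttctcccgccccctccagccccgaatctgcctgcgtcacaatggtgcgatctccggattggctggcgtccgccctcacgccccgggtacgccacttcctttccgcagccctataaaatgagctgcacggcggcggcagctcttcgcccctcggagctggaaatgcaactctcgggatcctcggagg
Txnip: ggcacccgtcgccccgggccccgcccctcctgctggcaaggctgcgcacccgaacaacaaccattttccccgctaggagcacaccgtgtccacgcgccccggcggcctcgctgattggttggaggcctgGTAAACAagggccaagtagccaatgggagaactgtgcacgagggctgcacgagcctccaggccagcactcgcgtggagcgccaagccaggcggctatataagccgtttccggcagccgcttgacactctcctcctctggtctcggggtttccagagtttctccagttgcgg
Sesn1: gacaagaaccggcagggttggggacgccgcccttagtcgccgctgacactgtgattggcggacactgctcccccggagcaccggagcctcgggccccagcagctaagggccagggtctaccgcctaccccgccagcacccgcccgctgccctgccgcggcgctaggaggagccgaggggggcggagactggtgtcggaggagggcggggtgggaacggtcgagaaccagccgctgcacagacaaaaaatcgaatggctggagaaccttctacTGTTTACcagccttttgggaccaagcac
Btg2: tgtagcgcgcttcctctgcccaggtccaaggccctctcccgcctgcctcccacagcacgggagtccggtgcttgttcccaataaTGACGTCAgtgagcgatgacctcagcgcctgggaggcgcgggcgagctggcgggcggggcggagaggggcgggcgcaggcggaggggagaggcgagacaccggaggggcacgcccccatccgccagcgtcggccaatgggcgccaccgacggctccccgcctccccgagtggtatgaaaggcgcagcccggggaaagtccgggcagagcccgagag
The E-box CACGTG, which stood in 7.15% of all windows, was in none of the 13. A match describes the letters of a window and shows no binding, and the missing letters in the other windows say nothing of the factors.

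After filtering there were 8748 cells without and 7992 cells with butyrate, with a median of 5074 and 5649 unique molecular identifiers (UMIs) per cell. A B cell had at least 1 UMI of Cd79a and none of Cd3e, and a T cell the reverse. T cells with UMIs of Cd4 or Cd8a alone were counted as CD4+ or CD8+. Cycling cells had UMIs of both Mki67 and Top2a, and resting cells of neither. This gave 3918 resting and 70 cycling B cells without butyrate and 3742 and 32 with butyrate, and 3271 resting and 49 cycling T cells without and 2982 and 35 with butyrate. Levels are UMIs of a gene per 1000000 UMIs (CPM) in the sum over a class, and their 95% Poisson intervals cover counting error only. The resting cells matched their names: 4 B cell markers summed to 3055 and 3286 CPM in resting B cells and to 35.6 and 33.5 CPM in resting T cells, and 4 T cell markers to 57.1 and 48.1 CPM in B cells and 2505 and 2447 CPM in T cells. The cycling T cells held 2311 and 2056 CPM of the T cell markers, γδ T cell markers at 0.841 and 0 CPM against 46.3 and 43.2 CPM in resting T cells, and natural killer cell markers at 256 and 248 against 406 and 457 CPM. The cycling B cells were of several kinds. Plasma cell markers summed to 5322 CPM without and 1698 CPM with butyrate in them, against 435 and 155 CPM in resting B cells, and germinal center markers to 341 and 280 CPM against 18.8 and 22.5 CPM. Myeloid markers reached 1920 CPM in the cycling B cells with butyrate, where 1 cell held 1075 Lyz2 UMIs. The libraries shared 25 cell barcodes, 22 of them after filtering. Within such a sum, a lower level per cell and fewer cells of a kind that holds the gene cannot be told apart.

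Cycling cells held lower CPM than resting cells of nearly all 10 genes, in B and in T cells and in both libraries. Foxo1, the transcription factor itself, was at 113 CPM in resting B cells without butyrate and at 105 CPM with butyrate. In cycling B cells it was at 46.5 (36.8 to 58.1) and 65.4 (48.1 to 87.0) CPM. In T cells Foxo1 went from 99.5 to 58.0 CPM without and from 104 to 48.0 CPM with butyrate between resting and cycling cells. The counting intervals of cycling and resting cells, from values that also chose the genes, did not overlap in any of these 4 pairs. As log2 ratios of CPM with 10 added to each level, cycling over resting, these were -1.12 and -0.61 in B cells and -0.69 and -0.97 in T cells.

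Pik3ip1, the membrane protein that restrains PI3K, had the lowest ratio of the 10 genes in the sum of all T cells. Its level was 142 CPM in resting and 16 (9.61 to 24.9) CPM in cycling T cells without butyrate, and 128 and 12 (6.2 to 21.0) CPM with butyrate. The log2 ratios were -2.55 (95% interval -2.95 to -2.12) and -2.65 (-3.09 to -2.15). It was not the lowest in either T cell subset. In CD4+ cells Txnip was lower, at -3.27 and -3.86 against -2.82 and -3.49 for Pik3ip1. In CD8+ cells Tsc22d3 was lower, at -1.91 and -2.10 against -1.86 and -1.74 for Pik3ip1. In B cells Pik3ip1 was at 82.6 and 67.3 CPM in resting and at 18.5 and 23.7 CPM in cycling cells, so the ratios were smaller in size, -1.70 and -1.20.

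Among the genes that restrain mTORC1, Sesn1 differed between the lineages before any cycling. It was at 110 CPM in resting B cells without butyrate and at 34.4 CPM in resting T cells, and at 68.2 and 27.1 CPM with butyrate. Cycling B cells held 25.6 (18.6 to 34.5) and 34.8 (22.5 to 51.4) CPM, which gave log2 ratios of -1.75 and -0.80. Cycling T cells held 10 and 9 UMIs of Sesn1 in all, which is 8.41 and 9 CPM. Sesn3 had similar levels in both lineages, between 72.2 and 83.0 CPM in the 4 resting sums and between 36.2 and 52.1 CPM in the 4 cycling sums. Its log2 ratios were -0.73 and -0.83 in B cells and -0.58 and -0.68 in T cells, which made it the gene with the smallest difference in T cells among those past the threshold. The third of these genes is Ddit4. Its level in T cells was 54.9 CPM in resting and 63.0 (49.6 to 79.0) CPM in cycling cells without butyrate, and 54.5 and 60 (45.8 to 77.2) CPM with butyrate. Neither difference exceeded the counting intervals. The log2 ratio in T cells moved with the processing, to 0.98 without and -1.60 with butyrate when each cell was thinned to 2000 UMIs. Thinning left at most 2000 UMIs in each of 49 and 35 cycling T cells. Few Ddit4 UMIs could remain in these sums, so their counting error is large, and no interval is given for them. With every cell weighted equally the ratio was 0.43 and 0.50. It was at -0.13 and -0.21 with totals that leave out ribosomal, mitochondrial and immunoglobulin genes, and at -0.08 and -0.17 when centred on the median of all genes. In B cells Ddit4 was at 36.8 CPM in resting and 12.5 (7.75 to 19.1) CPM in cycling cells without butyrate, but at 34.0 and 50.1 (35.1 to 69.4) CPM with butyrate. The 36 UMIs of that last sum came from 8 of 32 cells, and 1 cell held 12 of them. Without that cell the log2 ratio went from 0.45 to 0.12 (-0.37 to 0.60).

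Txnip, which limits glucose uptake, showed a larger difference in the sum of all T cells than in B cells. Resting T cells held 355 and 274 CPM and cycling T cells 60.5 (47.4 to 76.2) and 45.0 (32.8 to 60.2) CPM, and the log2 ratio was -2.37 in both libraries. In B cells it went from 179 to 75.1 CPM and from 174 to 65.4 CPM, with ratios of -1.15 and -1.28. The counting intervals of these ratios, from values that also chose the genes, did not overlap between B and T cells in either library. Among T cells the CD8+ ratios of Txnip, -1.07 and -1.26, were near those of B cells, and the CD4+ ratios were -3.27 and -3.86. Tsc22d3, which encodes GILZ, was at 560 and 521 CPM in resting B cells and at 129 and 139 CPM in cycling B cells. In T cells it went from 415 to 87.4 CPM and from 360 to 56.0 CPM. Its 4 log2 ratios lay between -1.83 and -2.49.

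Of the genes that act through CCR4-NOT, Btg1 had 1575 and 1496 CPM in resting B cells and 1276 and 1136 CPM in resting T cells. Cycling B cells held 338 (311 to 367) and 348 (306 to 394) CPM of Btg1 and cycling T cells 245 (217 to 274) and 249 (219 to 282) CPM. The 4 log2 ratios lay between -2.07 and -2.34, with the narrowest intervals of the 10 genes. Its annotated pseudogenes Btg1-ps1 and Btg1-ps2 held 0 UMIs over all kept cells in both libraries, and whether reads shared with them were dropped from Btg1 was not tested. Btg2, its close relative, differed less: 271 and 248 CPM in resting against 175 and 128 CPM in cycling B cells, and 250 and 231 CPM against 111 and 79.0 CPM in T cells. Tob1 was too low to be compared: it had 4 to 12 UMIs in each cycling sum, and its levels were between 5.57 and 17.8 CPM in the 8 sums.

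**Figure D1:**
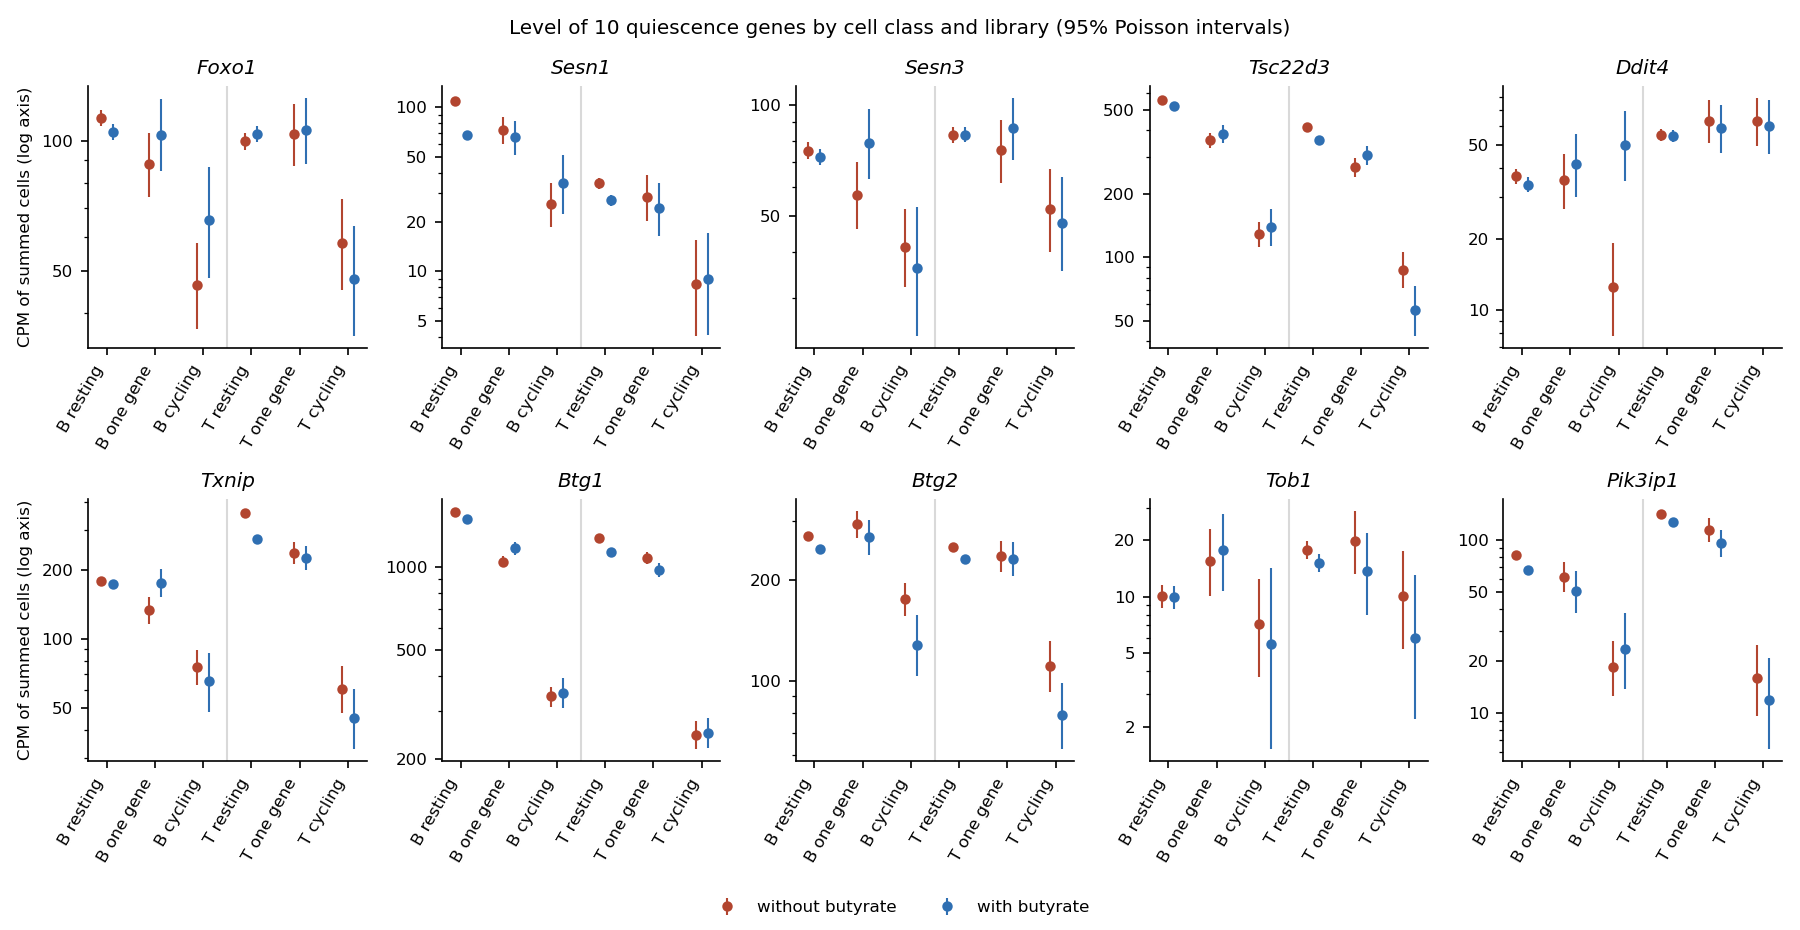
CPM of each of the 10 genes (log axis, 95% Poisson intervals) in summed resting cells, cells with UMIs of one of Mki67 and Top2a, and cycling cells, for B and T cells and for both libraries. Btg1 stands between 1136 and 1575 CPM in the 4 resting sums and between 245 and 348 CPM in the 4 cycling sums, and Ddit4 in T cells lies between 54.5 and 63.1 CPM in all 6.

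A gene was compared when it had at least 50 UMIs over both sums and a mean of at least 20 CPM, and it was called lower or higher at a log2 ratio past 0.5 in size. Without butyrate all 9 members that passed were called lower in cycling B cells, where 23.0% of 4896 genes were called lower and 25.1% higher. With butyrate 8 of 9 were called lower, where 18.7% of 5030 genes were lower and 24.7% higher. In T cells without butyrate 8 of 9 were called lower, against 14.4% of 4925 genes lower and 37.0% higher, and with butyrate 7 of 8, against 13.8% of 5031 genes lower and 37.9% higher. No member was called higher in these 4 comparisons. Tob1 failed the filter in all 4, and Sesn1 in T cells with butyrate. The median log2 ratio of the members that passed was -1.15 and -0.90 in B cells and -1.27 and -1.79 in T cells, beside medians over all compared genes of -0.01, 0.05, 0.25 and 0.29. With totals that leave out ribosomal, mitochondrial and immunoglobulin genes, the medians of all genes in T cells were -0.06 and -0.04. These counts and medians use the values that chose the members, so nothing is read from them.

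Cycling cells also held more UMIs. The mean was 23954 UMIs per cell in cycling against 5007 in resting B cells without butyrate, a 4.78-fold difference, and 4.18-fold with butyrate. In T cells the fold was 4.01 and 4.03. A gene with as many UMIs per cycling as per resting cell would therefore have a CPM lower by these folds, and both scales are given. The classes were cut by UMIs of Mki67 and Top2a, which are found more readily in a cell with more UMIs. How much of the folds this cut made was not tested. Foxo1, Sesn3, Btg2 and Ddit4 were higher per cycling cell in the sums of all B and of all T cells of both libraries, by the 95% counting intervals. This did not hold for all of them within the T cell subsets. In CD4+ cells the log2 ratios per cell of Btg2 were 0.27 (-0.12 to 0.63) and 0.12 (-0.30 to 0.52). That of Foxo1 with butyrate was 0.21 (-0.47 to 0.82). In the few cycling CD8+ cells the intervals of Foxo1 without butyrate and of Sesn3 and Btg2 with butyrate also included 0. Foxo1 had 0.564 UMIs per resting and 1.11 per cycling B cell without butyrate and 0.563 and 1.47 with butyrate. Per T cell it had 0.603 and 1.41, then 0.735 and 1.37. Btg2 had 1.36 and 4.2, then 1.33 and 2.88, UMIs per B cell, and 1.52 and 2.69, then 1.64 and 2.26, per T cell. Btg1 was nearly level per B cell, with 7.88 (7.80 to 7.97) UMIs in resting and 8.10 (7.45 to 8.80) in cycling cells without butyrate and 8.03 and 7.81 with butyrate. In T cells Btg1 was at 5.94 UMIs per cycling against 7.73 per resting cell without and 7.11 against 8.06 with butyrate. The lower level was in the CD4+ cells, at 5.20 against 7.79 and 5.12 against 8.20, while the 10 and 8 cycling CD8+ cells held 10.6 against 8.04 and 10.6 against 8.39. Txnip was at 0.898 and 0.931 UMIs per resting and 1.80 and 1.47 per cycling B cell, and at 2.15 and 1.95 UMIs per resting and 1.47 and 1.29 per cycling T cell. Here too the lower level was in the CD4+ cells, at 0.867 against 2.26 and 0.333 against 2.03, while the cycling CD8+ cells held 3.70 against 2.05 and 2.88 against 1.94. Pik3ip1 in the sum of all T cells was lower on both scales, at 0.859 and 0.907 UMIs per resting and 0.388 (0.233 to 0.606) and 0.343 (0.177 to 0.599) per cycling cell. In CD4+ cells Pik3ip1 was at 0.267 UMIs per cycling against 0.734 per resting cell without butyrate, and at 0.0417 against 0.768 with butyrate. In CD8+ cells its log2 ratios per cell were -0.18 (-1.31 to 0.75) and -0.10 (-1.32 to 0.88). A lower level per CD8+ cell was therefore not seen beyond the counting intervals. Tsc22d3 in T cells was at 2.52 and 2.55 UMIs per resting cell and 2.12 and 1.60 per cycling cell. Ddit4 had 0.333 and 0.387 UMIs per resting and 1.53 and 1.71 per cycling T cell, close to the fold by which all UMIs differed. Per B cell Ddit4 had 0.184 and 0.30 UMIs without butyrate, a log2 ratio of 0.70 (0.003 to 1.32), and 0.182 and 1.13 with butyrate. By the 95% intervals of these ratios, 6 and 6 of the 10 genes were higher and none lower per cycling B cell. In T cells 5 and 4 were higher and 3 and 4 lower. All UMIs together were higher per cycling cell, by 4.78-fold and 4.18-fold in B and 4.01-fold and 4.03-fold in T cells. A gene that only kept its share of all UMIs would therefore also be higher per cell. The share of all genes higher or lower per cell was not computed, so nothing is read from these counts.

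**Figure D2:**
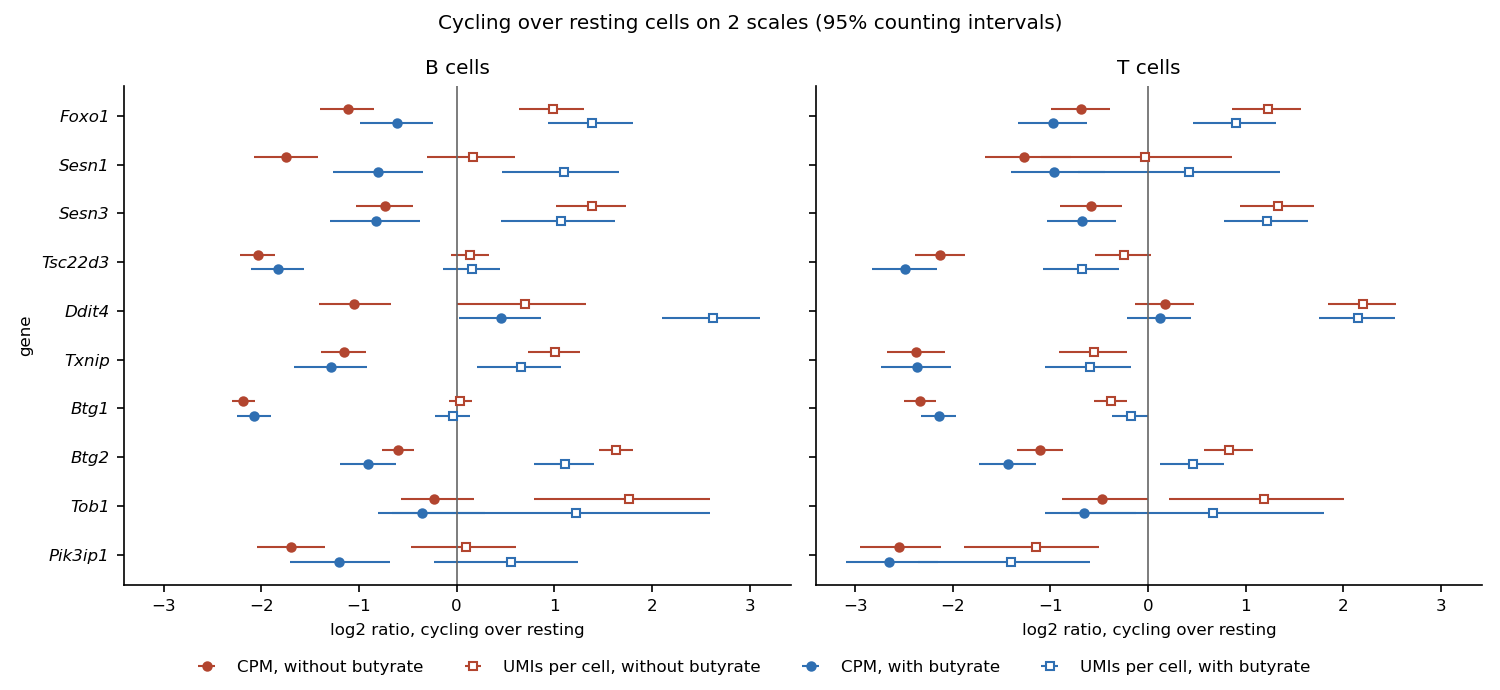
log2 ratio of cycling over resting cells for each gene in B cells (left) and T cells (right), as CPM (filled circles) and as UMIs per cell (open squares), by library, with 95% counting intervals. The CPM ratios lie left of 0 for nearly all genes. On the per-cell scale Pik3ip1, Txnip, Btg1 and Tsc22d3 are left of 0 in T cells of both libraries. Foxo1, Sesn3, Btg2 and Ddit4 are right of 0 in both lineages with their intervals.

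The comparison was repeated without B cells that had at least 5 UMIs of Jchain or of Lyz2 or any of Csf1r. This choice was made after the values were seen. It removed 39 of 70 and 17 of 32 cycling cells but 27 of 3918 and 15 of 3742 resting cells. Most differences became smaller. Btg1 was then at 679 and 588 CPM in cycling B cells, with log2 ratios of -1.23 and -1.35. Tsc22d3 was at 194 and 198 CPM, with ratios of -1.50 and -1.36, and Pik3ip1 at -0.90 and -0.69. Sesn3 without butyrate changed sign, from -0.73 to 0.24 (-0.15 to 0.61). Foxo1 had a ratio of -0.98 without butyrate and of -0.24 (-0.82 to 0.30) with butyrate, and Txnip one of -0.55 and -0.86. Sesn1 with butyrate, at -0.31, and Ddit4 without butyrate, at -0.33, were no longer called. In all, 7 of the 9 genes that passed were called lower without butyrate, where 14.1% of 4921 genes were called lower and 18.4% higher. With butyrate 6 of 9 were called lower and Ddit4 higher, at 0.68 on 16 UMIs, where 16.7% of 5005 genes were lower and 21.8% higher. Against resting B cells of at least 10000 UMIs (153 and 210 cells), also a choice made later, 7 of 9 members were called lower without butyrate, where 16.1% of 4841 genes were lower and 22.5% higher. With butyrate 6 of 9 were lower and Ddit4 higher, where 13.8% of 4951 genes were lower and 22.8% higher. Btg1 had ratios of -1.37 and -1.52. Sesn1 with butyrate was then at -0.02, Sesn3 and Btg2 without butyrate at -0.14 and -0.31, and Foxo1 at -0.54 and -0.38. With each cell thinned to 2000 UMIs, Sesn3 was at -0.18 and 0.55 and Txnip with butyrate at -0.40. The thinned sums hold far fewer UMIs, and their counting intervals are not given. In T cells the same choice (178 and 322 cells) left Pik3ip1 at -2.15 and -2.26, Txnip at -1.98 and -2.07, Btg1 at -1.89 and -1.61 and Tsc22d3 at -1.54 and -1.95, and Foxo1 without butyrate at -0.46. Thinned to 2000 UMIs, Txnip in T cells with butyrate was at -1.32 and Btg2 without butyrate at -0.48.

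**Figure D3:**
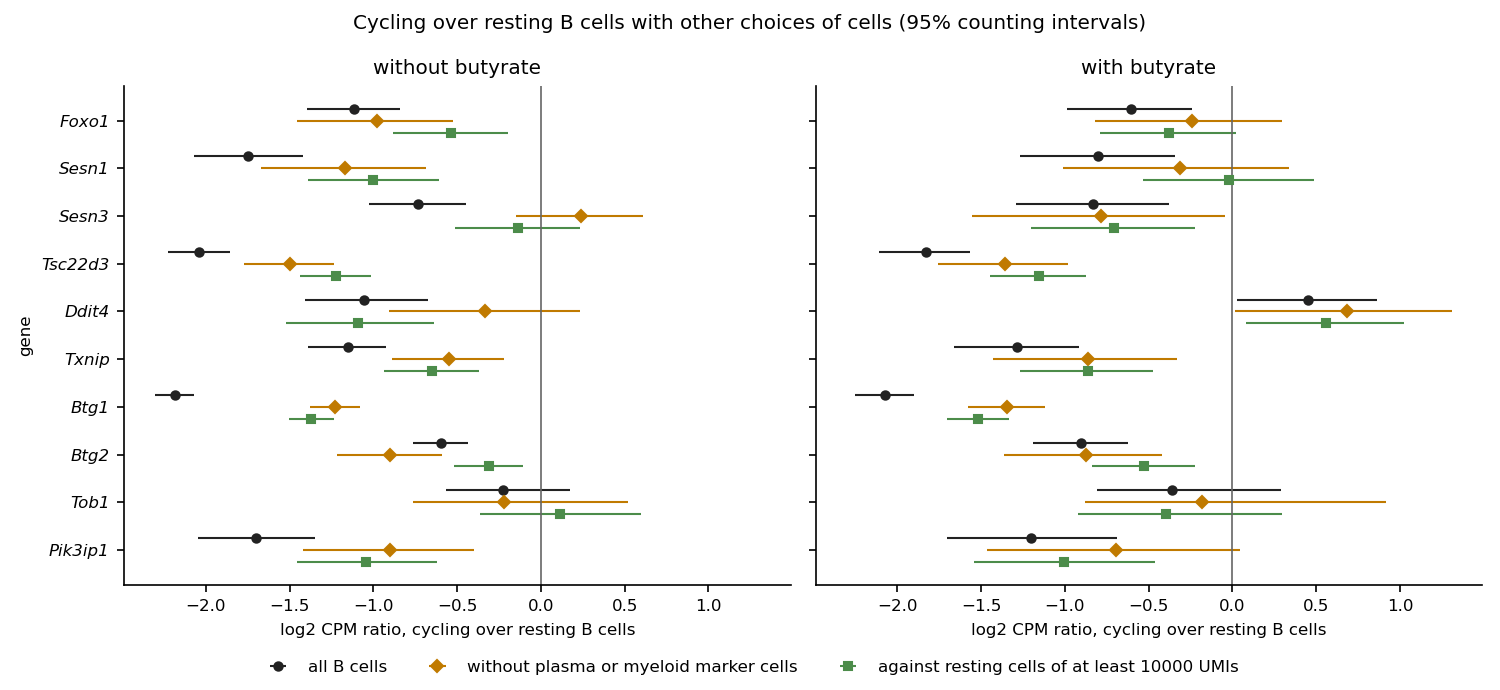
log2 CPM ratio of cycling over resting B cells for each gene, without (left) and with butyrate (right), with 95% counting intervals: all B cells, B cells without plasma or myeloid marker cells, and all cycling cells against resting cells of at least 10000 UMIs. Btg1 and Tsc22d3 stay left of 0 in all 6 values, and Sesn3 without butyrate moves from -0.73 to 0.24.

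Cells with UMIs of either Mki67 or Top2a but not both lay between the others for some genes but not for others. In B cells without butyrate (214 cells) Btg1 was at 1043 CPM, between 1575 and 338 CPM, and Tsc22d3 at 359 CPM, between 560 and 129 CPM. In T cells Txnip was at 238 and 227 CPM and Pik3ip1 at 115 and 96.1 CPM. Foxo1 in these T cells, at 104 and 106 CPM, was not below its resting 99.5 and 104 CPM. Btg2 in these B cells, at 294 and 269 CPM, was not below its resting level. With butyrate (160 B cells) Btg1, at 1168 CPM, and Tsc22d3, at 383 CPM, also lay between. Txnip, Sesn3 and Ddit4 there, at 177, 78.9 and 41.3 CPM, were not below their resting 174, 72.2 and 34.0 CPM. Of the 10 members, 8 without and 5 with butyrate had CPM ratios to resting B cells below 0. Per cell, Btg1 had 7.86 and 7.78 UMIs in these B cells, about as many as in resting and in cycling cells.

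Among T cells the differences were wider in CD4+ than in CD8+ cells for Txnip and Btg1. Txnip was at 415 CPM in resting and 34.0 (22.2 to 49.8) CPM in 30 cycling CD4+ cells without butyrate, and at 319 and 12.6 (5.43 to 24.8) CPM in 24 cycling cells with butyrate. In CD8+ cells it went from 288 to 132 CPM and from 235 to 92.2 CPM, in 10 and 8 cycling cells. The log2 ratios were -3.27 and -3.86 in CD4+ and -1.07 and -1.26 in CD8+ cells. Their counting intervals did not overlap, and they come from values that also chose the genes. Btg1 had ratios of -2.75 and -2.67 in CD4+ and -1.55 in both libraries in CD8+ cells. Pik3ip1 was at 8 UMIs and 1 UMI in the cycling CD4+ sums, and at 9 and 8 UMIs in the cycling CD8+ sums from fewer cells. In resting cells CD4+ exceeded CD8+ T cells for Btg2, at 325 against 174 CPM without and 318 against 158 CPM with butyrate, and for Ddit4, at 72.0 against 42.3 and 70.8 against 41.8 CPM. The intervals of the CPM ratio, CD4+ over CD8+, were above 0 for 7 of the 10 genes in each library and below 0 for none. Per cell, the intervals of 3 genes were above and of 3 below 0 without butyrate, and of 2 and 2 with butyrate. Resting CD4+ cells held a mean of 5455 and 6377 UMIs, and resting CD8+ cells 7117 and 8253. The share of all genes was not computed for this contrast, so nothing is read from these counts. Pik3ip1, at 135 and 143, then 120 and 130 CPM, differed by less than its counting intervals between the subsets. Per cell it was lower in resting CD4+ than CD8+ cells, at 0.734 against 1.02 UMIs without and 0.768 against 1.07 with butyrate.

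Among resting CD4+ T cells, those with Foxp3, the factor of regulatory T cells, numbered 61 and 62. Pik3ip1 was at 56.3 (33.9 to 88.0) and 53.3 (33.4 to 80.7) CPM in them, against 135 and 120 CPM in all resting CD4+ cells, and the intervals did not overlap in either library. Sesn1 went the other way, at 77.1 (50.4 to 113) and 58.2 (37.3 to 86.6) CPM against 37.9 and 33.0 CPM, with intervals that overlapped with butyrate and not without. Txnip was at 299 and 288 against 415 and 319 CPM, Btg1 at 1219 and 1224 against 1429 and 1286 CPM and Btg2 at 397 and 376 against 325 and 318 CPM. Ddit4 was at 50.4 (29.4 to 80.7) and 89.7 (63.2 to 124) CPM against 72.0 and 70.8 CPM, which differed by less than the counting intervals. The cells with Foxp3 are also part of all resting CD4+ cells.

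Resting B cells with Cd83, a marker of recent activation, numbered 2306 and 2583. Txnip was at 162 and 165 CPM in them and at 207 and 194 CPM in resting B cells without Cd83, and Pik3ip1 at 75.6 and 62.8 against 93.7 and 78.3 CPM. Btg1 was slightly higher with Cd83, at 1616 and 1537 against 1510 and 1396 CPM. Plasma cells, taken by Jchain with Sdc1 or Tnfrsf17, numbered 38 and 11, and 14 and 6 of them were among the cycling B cells. Btg1 had its lowest CPM there, at 68.7 (53.5 to 87.0) and 80.1 (54.1 to 114), and Sesn3 had 3 and 2 UMIs in all. Btg2 in plasma cells was at 392 (355 to 433) CPM without and 158 (120 to 203) CPM with butyrate, above and below its 271 and 248 CPM in resting B cells. With butyrate the direction depended on the scale. The 38 and 11 plasma cells held 394 and 59 UMIs of Btg2, more per cell than the mean of 1.36 and 1.33 per resting B cell. The median was 8.5 and 6 UMIs per plasma cell, and that of resting B cells is not given. Plasma cells held a median of 25554 and 27317 UMIs in all. Natural killer cells (12 and 28), taken by Ncr1, held Btg1 at 1326 and 1185 CPM, within the range of the resting lymphocytes.

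**Figure D4:**
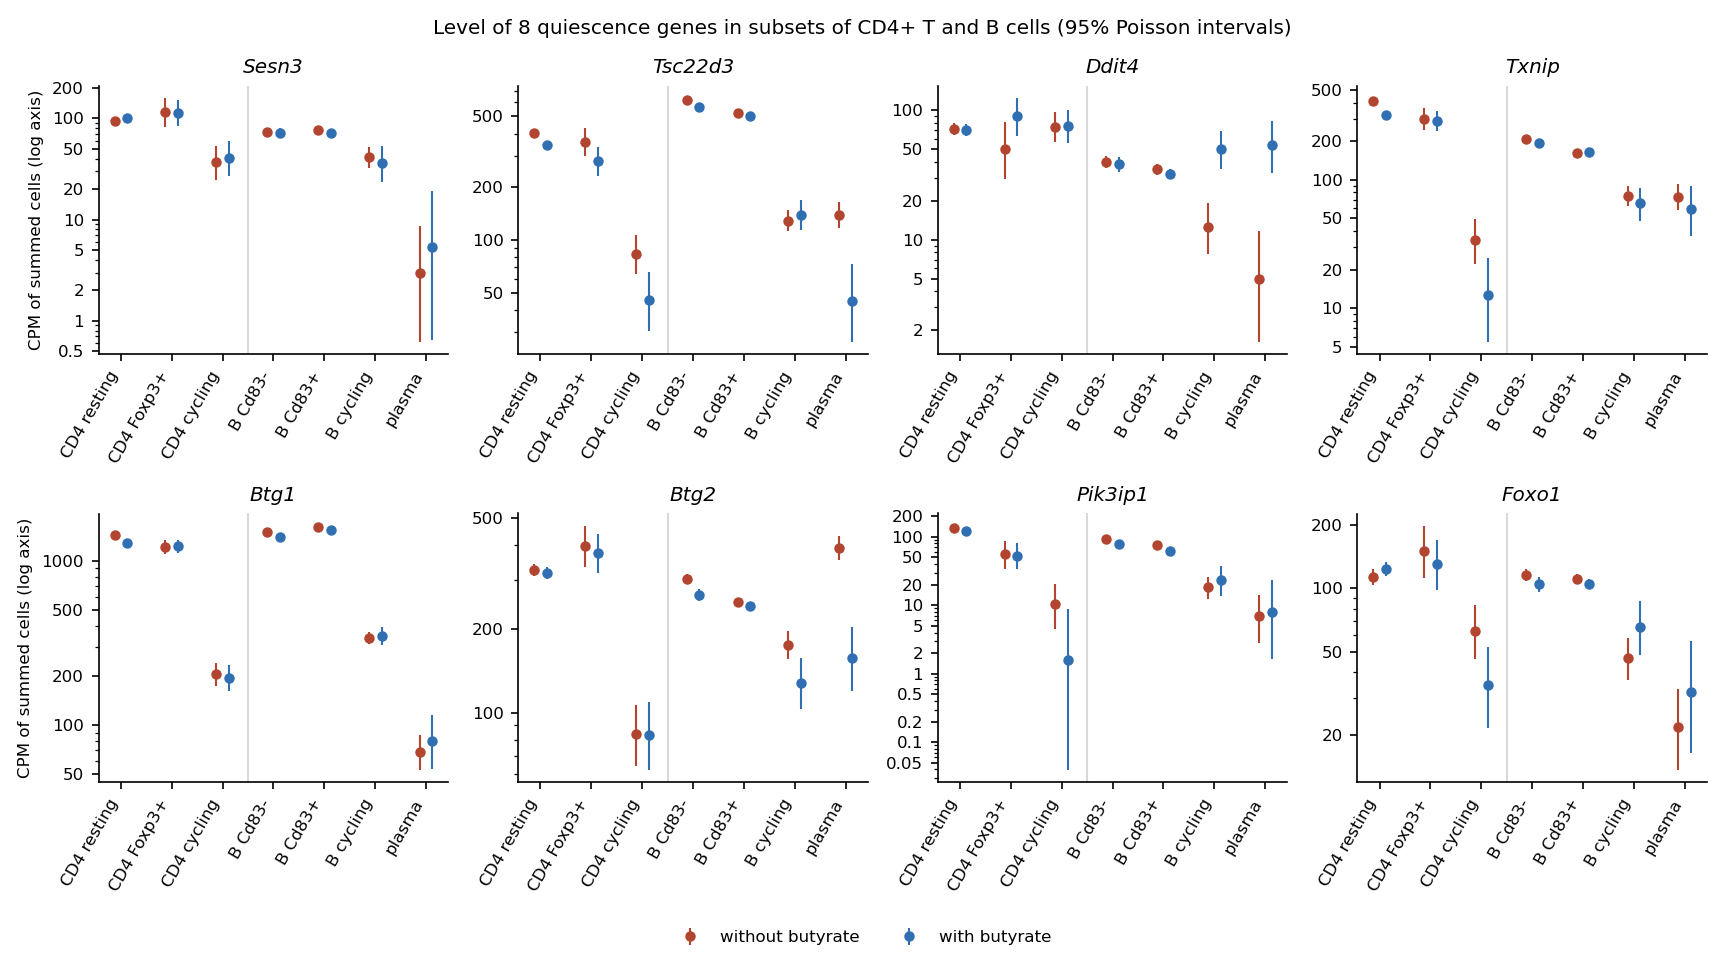
CPM (log axis, 95% Poisson intervals) of 8 of the genes in resting, Foxp3+ and cycling CD4+ T cells, in resting B cells without and with Cd83, in cycling B cells and in plasma cells, by library. Pik3ip1 is lower in Foxp3+ than in all resting CD4+ cells in both libraries, at 56.3 and 53.3 CPM, and Btg1 has its lowest levels in plasma cells, at 68.7 and 80.1 CPM.

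Between the libraries the resting levels of most of these genes differed little. In resting B cells 1 of 9 members passed the threshold, Sesn1, at 110 (105 to 114) CPM without and 68.2 (64.6 to 71.9) CPM with butyrate, a log2 ratio of -0.61 (-0.70 to -0.53). In resting B cells 0.537% of 4844 genes were called lower and 0.165% higher with butyrate. The ratio between the libraries also chose the genes, so nothing is read from the 1 of 9. In resting B cells with Cd83, Sesn1 was at 62.4 CPM with and 101 CPM without butyrate. In those without Cd83 it was at 82.1 and 122 CPM. After leaving out the B cells with plasma or myeloid markers, its log2 ratio was -0.63. These are the same resting B cells of the same 2 libraries, split or with few left out, and so no separate support. On the scale of UMIs per cell Sesn1 was at 0.549 without and 0.366 with butyrate in all resting B cells. The ratio was smaller in size in CD8+ T cells, at -0.29 (-0.47 to -0.12), and in CD4+ T cells, at -0.15 (-0.39 to 0.09), and the cycling B cells held 25.6 and 34.8 CPM with overlapping intervals. Pik3ip1 was the next lowest in resting B cells, at 82.6 and 67.3 CPM and a ratio of -0.26 (-0.35 to -0.17).

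In resting T cells no member passed the threshold, in CD4+ cells where 0.875% of 4687 genes were called lower and 0.128% higher, nor in CD8+ cells where 0.590% of 4406 genes were lower and 0.0681% higher. The lowest ratio was that of Txnip in CD4+ cells, at 415 (397 to 433) CPM without and 319 (303 to 335) CPM with butyrate, a log2 ratio of -0.37 (-0.46 to -0.28). In CD8+ cells Txnip was at 288 and 235 CPM, a ratio of -0.28. Tsc22d3 had ratios of -0.22 and -0.17 and Btg1 of -0.15 in both. Foxo1 and Sesn3 were not lower with butyrate in CD4+ cells, with ratios of 0.12 (-0.04 to 0.27) and 0.09 (-0.08 to 0.26). The median over the members that passed was -0.09 in B, -0.15 in CD4+ and -0.13 in CD8+ cells. Over all compared genes it was 0.04, 0.01 and 0.01. The ratios of the members also chose them, so nothing is read from these medians. These ratios depend on the scale, since resting T cells held a mean of 7097 UMIs with and 6062 without butyrate. Per resting T cell, Btg1 had 7.73 UMIs without and 8.06 with butyrate, and Txnip, at 2.15 and 1.95, was still lower with butyrate.

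**Figure D5:**
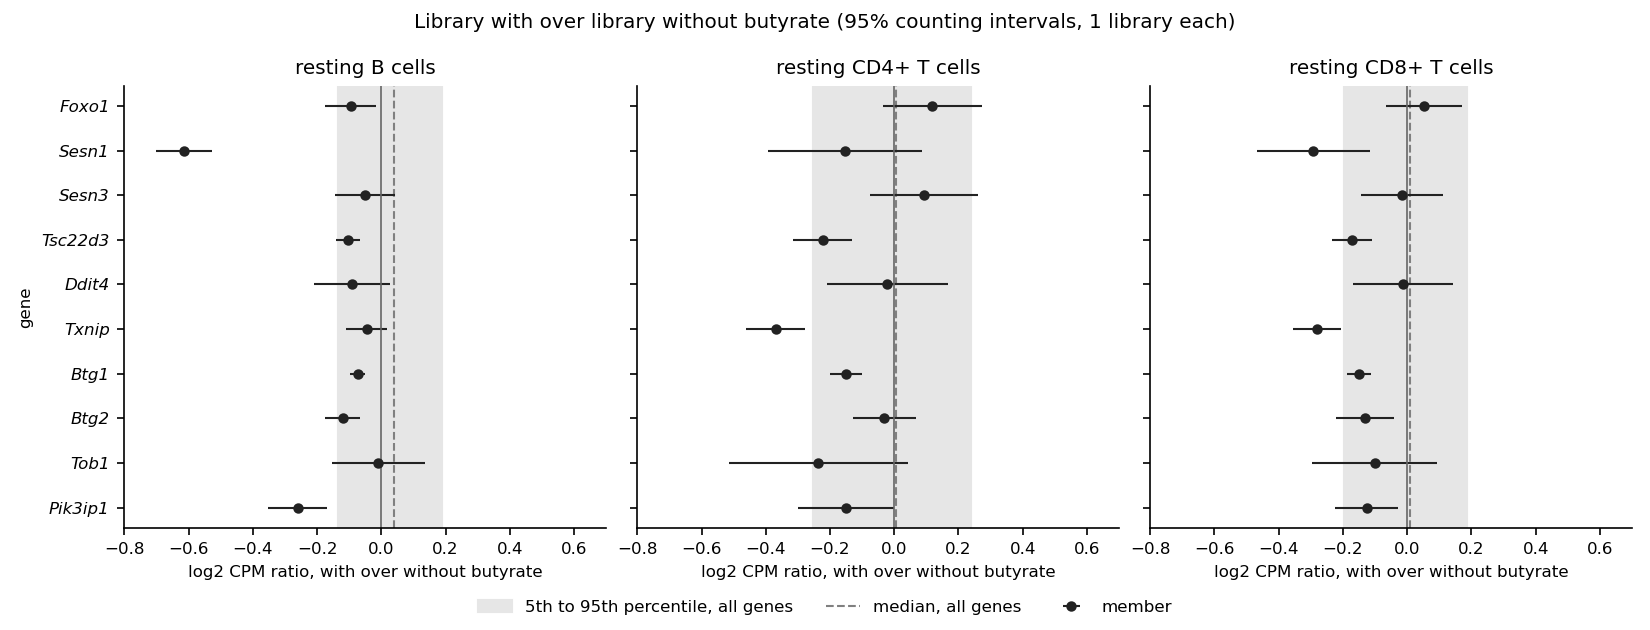
log2 CPM ratio of the library with over the library without butyrate for each gene in resting B, CD4+ T and CD8+ T cells, with 95% counting intervals. The grey band spans the 5th to 95th percentile of all compared genes and the dashed line is their median. Sesn1 in B cells, at -0.61, is far left of the band, and Txnip in CD4+ T cells is at -0.37.

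Other genes of the pathway were taken from lists chosen with earlier results of these data known, and are given by the same call. Beside the counts in this paragraph, the shares of all compared genes called lower were 23.0% and 18.7% in cycling B and 14.4% and 13.8% in cycling T cells. Of 13 listed target genes of FoxO factors in lymphocytes, 8 of 10 and 8 of 9 that passed were called lower in cycling B cells, and 10 of 11 in cycling T cells in both libraries, where Ccng2 alone was higher. Il7r, the interleukin-7 receptor chain that keeps naive T cells alive, was at 640 and 510 CPM in resting and at 78 CPM in cycling T cells of both libraries. Ccr7, which guides cells into the T zone, was at 164 and 139 CPM in resting and 39 and 47 CPM in cycling B cells. Of the FoxO factors themselves, Foxo1 was the only one that passed the filter. Of 9 other quiescence genes 6 passed, of which 6 and 6 were lower in cycling B and 4 and 4 in cycling T cells. Among them Foxp1, a forkhead factor of naive lymphocytes, had log2 ratios of -1.62 and -1.54 in B and -1.57 and -1.32 in T cells.

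Of the kinases and brakes around Akt, 3 of 7 and 2 of 9 were lower and Akt1 alone higher in cycling B cells, and 4 of 10 were lower and Akt1 higher in T cells of both libraries. The shares of all genes called lower were 23.0% and 18.7% in B cells, which 2 of 9 is near, and 14.4% and 13.8% in T cells. Called higher were 25.1% and 24.7% of all genes in B cells and 37.0% and 37.9% in T cells. Akt1 was at 64 and 81 CPM in cycling against 26 and 31 CPM in resting B cells. Of 11 mTORC1 brakes found by symbol, Rheb, the activator in that list, was the only one that passed, at 0.54 in T cells without butyrate. Of 9 BTG and CCR4-NOT genes in B cells, Tob2 alone was lower in cycling cells, at -1.11 and -1.03, and 0 and 1 were higher. None was lower in T cells, where 1 of 10 and 3 of 11 were higher. In both lineages these counts called higher were below the shares of all genes. Thioredoxin, which Txnip binds, was higher in cycling cells, with Txn1 at 118 and 125 CPM in resting and 939 and 1002 CPM in cycling B cells, and at 160 and 171 against 1043 and 1031 CPM in T cells. In its list 2 of 4 and 1 of 4 genes were higher in B cells, where Mlxip was lower, and 2 of 3 in T cells. The 1 of 4 is near the share of all genes called higher. Growth genes of stimulated lymphocytes were higher for 6 of 10 in B cells of both libraries and 6 and 7 of 9 in T cells, with Ldha at 996 and 1069 against 254 and 267 CPM in T cells, and Myc was lower in cycling B cells. All 12 cell cycle genes were higher in all 4 comparisons. The cut by Mki67 and Top2a largely fixed this in advance, so nothing is read from it. The immediate early genes were lower for 5 and 9 of 9 in B cells and for 5 of 7 and 2 of 8 in T cells, and 2 and 0 in B and 0 and 1 in T cells were higher. Interferon-response genes were lower for 2 of 6 and 1 of 5 in B and for 7 of 10 and 5 of 8 in T cells, and 2 and 0, then 1 and 1, were higher. The counts of 2 of 6 and 1 of 5 are near the shares of all genes called lower in B cells.

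Glucocorticoid-responsive genes were listed because Tsc22d3 is one. Of those that passed, 3 of 3 and 2 of 4 were lower in cycling B cells, but 1 and 0 of 4 in cycling T cells, where Fkbp5 was higher, at 84 and 70 against 23 and 21 CPM. The shares of all genes called lower were 23.0% and 18.7% in B and 14.4% and 13.8% in T cells, and 37.0% and 37.9% were called higher in T cells. Between the libraries none of the glucocorticoid-responsive genes was called in resting cells, as was none of the FoxO targets, the other quiescence genes, the Akt list, the mTORC1 list, the CCR4-NOT list, the Txnip partners, the growth genes or the cell cycle genes. The exceptions were Egr1 of the immediate early genes, higher in resting B cells at 94 against 61 CPM, and the interferon-response genes, which were lower with butyrate for 6 of 8 in B, 10 of 10 in CD4+ and 9 of 10 in CD8+ cells. Of all compared genes 0.537% were called lower in resting B, 0.875% in CD4+ and 0.590% in CD8+ cells. Whether the lower level of the interferon-response genes had a part in the Sesn1 or the Txnip difference was not tested.

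Over 12 sums (B, CD4+ and CD8+ T cells, resting and cycling, in both libraries) the members were compared with each other by log2(CPM + 10). The Pearson correlation with the mean of the other 9 was 0.96 for Btg1, 0.92 for Pik3ip1, 0.92 for Txnip, 0.91 for Tsc22d3, 0.85 for Btg2, 0.84 for Foxo1 and 0.81 for Sesn3. It was 0.61 for Sesn1, 0.56 for Tob1 and -0.01 for Ddit4. Among 5113 genes with at least 20 CPM on average, the genes most like the mean z-score of the 10 were Kmt2c (r = 0.976), Zfp329 (0.975), Ypel3 (0.973), Rps27 (0.970) and Ddx3y (0.970). Ypel3 was at 172 and 161 CPM in resting and 65 and 64 CPM in cycling B cells. These are correlations over sums that share 2 libraries and split into resting and cycling cells of different depth, and they are given as a description.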

How the data were processed

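The deposited values are unnormalized UMI counts, which the authors obtained from 10x 3' libraries with Cell Ranger 6.0.1 on mm10, per the submitters' processing notes. A cell was kept with at most 10% of its UMIs mitochondrial and with 200 genes or more, and 186 cells of the library without butyrate and 327 of the other failed. Scrublet in scanpy 1.11.5 then ranked the cells, and the top 0.8% for every 1000 cells in a library, 747 and 613 cells, were dropped as doublets. UMIs were summed per class and library and scaled to CPM. Ratios are log2 of CPM with 10 added, with 95% intervals combined from exact Poisson limits. They cover counting error only. Simulated counts with known changes were used to check the ratios. The members and the gene lists were chosen with earlier results of these data known. The genes named are the 10 members, up to 3 genes of each list (and Ccng2 and the Btg1 pseudogenes, chosen after their values were seen) with the largest ratio per comparison and the 5 most alike genes. Castor1 and Castor2 were not found by symbol. All identifiers of the members matched GENCODE M21 (GRCm38). Alternatives were no doublet removal, at most 5% mitochondrial UMIs, at least 500 genes, lineage or cycling from at least 2 UMIs, thinning each cell to 2000 UMIs (101 and 57 cells left out), totals without ribosomal, mitochondrial and immunoglobulin genes, equal weights per cell, a pseudocount of 1, centring and no CPM filter. Other versions were Python 3.11.15, numpy 2.4.6, scipy 1.17.1 and pandas 2.3.3.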

Additional observations from a re-analysis of the deposited data

Results flagged for a closer look

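Ddit4 was lower in cycling than in resting B cells without butyrate, at a log2 CPM ratio of -1.06, and higher with butyrate, at 0.45, so the same comparison had opposite signs in the libraries. The ratio of 0.45 was short of the 0.5 that counts as called, and it was -0.00 with cycling taken from at least 2 UMIs of each gene and -0.07 with each cell thinned to 2000 UMIs. The difference was not tested, since each condition had 1 library. It rests on 21 UMIs in 15 of 70 cells and on 36 UMIs in 8 of 32 cells. Without the cell with the most Ddit4 UMIs the ratios were -1.12 and 0.12. Without plasma or myeloid marker cells they were -0.33 (-0.90 to 0.23) and 0.68 (0.02 to 1.31). Against resting cells of at least 10000 UMIs they were -1.09 and 0.56.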

How the results depend on the processing

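Over 84 results and their alternatives, 940 values were computed, of which 822 stayed inside the reported interval or, for a count of genes, near the reported count, 116 did not and 2 changed the sign of a called ratio. The sign changes were both for Sesn3 in cycling B cells. It was at 0.55 with butyrate when cells were thinned to 2000 UMIs. That sum held at most 2000 UMIs from each of 32 cells, so 0.55 rests on few Sesn3 UMIs, and no interval is given. It was at 0.24 (-0.15 to 0.61) without butyrate without plasma or myeloid marker cells. The count of members called higher in cycling cells, 0 as reported, was 1 in B cells with butyrate with at most 5% mitochondrial UMIs, with lineage from at least 2 UMIs, with thinning, with a pseudocount of 1 CPM, without plasma or myeloid marker cells and against resting cells of at least 10000 UMIs. It was 1 in T cells without butyrate with thinning and 1 in T cells with butyrate with every cell weighted equally. The cause was not tested. Sesn1 in resting B cells kept a ratio between -0.68 and -0.58 over 10 alternatives. No paired analysis was possible because each condition has 1 library. The cycling CD8+ sums came from 10 and 8 cells, and Tob1 failed the filter in all 4 cycling comparisons.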
